A study of Pyrus pyrifolia with 6 samples.

Results

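The members described here are the differentially methylated regions that lie on unplaced scaffolds, that is, on assembled pieces of the pear genome that were not assigned to any chromosome. They were found by sequence name in the authors' deposited table, as every row whose sequence name does not begin with Chr, in all contexts and both directions. This gave 3548 of 53954 regions (6.58%), on 192 scaffolds. The other 50406 regions lie on 17 chromosomes. Direction is the mean level in bagged skin minus the mean level in unbagged skin.

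The tissue was fruit skin of the pear cultivar 'Cuiguan' (Pyrus pyrifolia), read by bisulfite sequencing. The bagged group was skin of fruit grown in paper bags, which were white with a single layer on day 20 after full bloom and yellow-white with a double layer on day 40 (3 samples). The unbagged group was skin of fruit left without a bag (3 samples). Both groups came from the same cultivar, from trees of 7 years, and were sampled on day 115, and the labels name no difference in genotype between them. The table holds 1 authors' mean per group and region with the samples combined, so the spread between replicates cannot be given for any value, and the depth is unknown. For the same reason no comparison was tested across samples. Intervals given with shares are 95% binomial intervals (exact, by Clopper-Pearson). They cover counting error only and treat neighbouring regions as independent.

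Plants methylate cytosines in every sequence context, named by the bases after the cytosine, with H standing for A, C or T. As background, known mainly from Arabidopsis, CG methylation is copied after replication by the methyltransferase MET1 and CHG methylation is kept up mainly by CMT3 together with histone H3 lysine 9 methylation. CHH methylation has no symmetric partner strand to copy and is laid down anew by DRM2, which small RNAs guide, and by CMT2, chiefly over transposons. Methylation in each context is therefore called and described separately here. Genes, repeats and the sequence of these regions were not analysed here.

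In all contexts more scaffold regions were higher than lower in bagged skin. In CHH context, 220 of 3382 scaffold regions were lower and 3162 higher, which makes 93.5% higher (92.6 to 94.3), beside 90.5% over the CHH regions of the whole table. In CHG context, 64 of 94 were higher and 30 lower, or 68.1% (57.7 to 77.3) beside 51.1% over the whole table. In CG context, 41 of 72 were higher and 31 lower, or 56.9% (44.7 to 68.6) beside 39.0% over the whole table. The CG interval includes an equal split, whereas 38.4% of the 1958 CG regions on chromosomes were higher (36.2 to 40.6).

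CHH regions were 95.3% of the scaffold regions, CHG regions 2.65% and CG regions 2.03%, against 92.6%, 3.55% and 3.88% on chromosomes. On single chromosomes the CHH share ran from 91.3% on chromosome 12 to 93.8% on chromosome 13, so the scaffold value lay above all 17. The CHG and CG shares lay below the lowest chromosome, which had 2.79% CHG regions (chromosome 16) and 3.16% CG regions (chromosome 14). For direction, the scaffold share of higher CHG regions was above the chromosome with most (59.7%, chromosome 11) and that of CG regions above the chromosome with most (50.4%, chromosome 5). The scaffold CHH share of 93.5% was above the highest chromosome, at 91.6% (chromosome 8). These values are for all scaffolds together. In classes by the end of the last region, given below, some of these shares lay within the chromosome ranges. The scaffold CG and CHG shares rest on 72 and 94 regions. None of these differences between scaffolds and chromosomes was tested, and how reads that match several places were handled is not known here.

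In sequence covered, the scaffold regions spanned 525 kb. CHH regions higher in bagged skin took 483.5 kb of it and lower ones 24.6 kb. CHG regions took 6.67 kb higher and 2.98 kb lower, and CG regions 4.15 kb higher and 3.08 kb lower.

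CHH methylation of the scaffold regions was low in both groups. Their median level was 13.8% in bagged skin (quartiles 10.1 and 21.2) and 6.36% in unbagged skin (quartiles 4.12 and 11.6), where the CHH regions of chromosomes had medians of 23.1% in bagged and 12.8% in unbagged skin. The lowest chromosome medians were 20.6% in bagged and 11.2% in unbagged skin, both on chromosome 13. Of the scaffold CHH regions, 2377 (70.3%) had an unbagged level under 10%, against 39.8% on chromosomes, where the share ran from 35.6% (chromosome 4) to 45.3% (chromosome 13). The regions were chosen by the authors for a difference, so these levels describe changed regions and not the scaffolds as a whole.

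**Figure D1:**
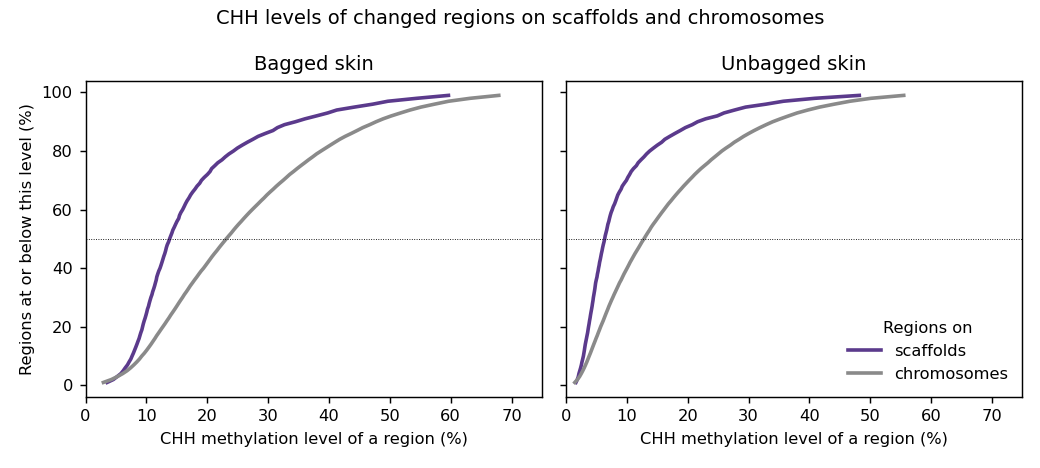
Cumulative share of changed CHH regions (vertical axis, %) by methylation level (horizontal axis, %) in bagged skin (left) and unbagged skin (right), for regions on scaffolds (purple) and on chromosomes (grey), drawn at each whole percentile. The scaffold curves cross the dotted 50% line at 13.8% in bagged and 6.36% in unbagged skin, while the chromosome curves do so at 23.1% (bagged) and 12.8% (unbagged).

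The 3162 CHH regions that were higher had medians of 14.2% in bagged and 6.01% in unbagged skin. Their median difference was 7.81 percentage points (quartiles 5.89 and 11.4) and their median ratio of bagged to unbagged level 2.18 (1.84 and 2.77). On chromosomes the higher CHH regions had a median difference of 11.7 points and a median ratio of 1.95. The scaffold regions thus had the smaller difference in points, the larger ratio and the lower unbagged level. A bagged level of 2 or more times the unbagged level was reached by 1966 of the 3162 (62.2%), beside 48.0% over all higher CHH regions of the table. In 1223 of the 3162 (38.7%) the unbagged level was under 5%, against 18.0% of the higher CHH regions on chromosomes. In 676 (21.4%) even the bagged level was under 10%, against 7.59% of the higher CHH regions on chromosomes. At the upper end, 99 (3.13%) had a bagged level of 50% or more, and the highest was 74.8%.

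For the 220 CHH regions that were lower, the median level was 6.36% in bagged and 18.4% in unbagged skin, with a median difference of -11.3 points (quartiles -18.3 and -7.61). Their bagged level was at most 0.5 times the unbagged one in 171 (77.7%), beside 68.6% over all lower CHH regions of the table. They lay on 88 scaffolds, with at most 13 on any one. On chromosomes the medians of such regions were 9.48% in bagged and 25.6% in unbagged skin.

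Large differences were fewer among the scaffold CHH regions. A difference of 20 points or more, in either direction, was found in 191 of 3382 (5.65%), beside 10% over the whole table. Of these 191 regions, 154 were higher (80.6%, 74.3 to 86.0), against 78.5% of the CHH regions on chromosomes that passed it. In both sets the share of higher regions was thus smaller among large differences. In CHG context 54 of 94 scaffold regions (57.4%) passed 20 points, beside 69.6% over the whole table, and in CG context 41 of 72 (56.9%), beside 65.9%.

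CG methylation showed wide levels. The 41 higher CG regions had medians of 62.1% in bagged and 24.8% in unbagged skin (unbagged quartiles 10.5 and 50.2), with a median difference of 22.1 points. The 31 lower ones had medians of 57.9% in bagged and 88.0% in unbagged skin (unbagged quartiles 59.1 and 92.3), with a median difference of -20.7 points. Of these 31, 17 (54.8%) had 80% or more in unbagged skin, against 26.9% of the lower CG regions on chromosomes, whose unbagged median was 63.7%. Among the 15 lower CG regions with 10 or more cytosines the unbagged median was 71.7%. All 31 together had a median of 9 cytosines.

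Lower CHG regions lay between lower CG and lower CHH regions in their unbagged level. The 64 higher CHG regions had medians of 60.3% in bagged and 32.4% in unbagged skin and a median difference of 20.8 points. The 30 lower ones had medians of 36.9% in bagged and 62.8% in unbagged skin and a median difference of -23.4 points. The corresponding differences on chromosomes were 22.7 and -24.5 points. The scaffold CHG regions were short in cytosines, with a median of 8 against 10 on chromosomes.

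**Figure D2:**
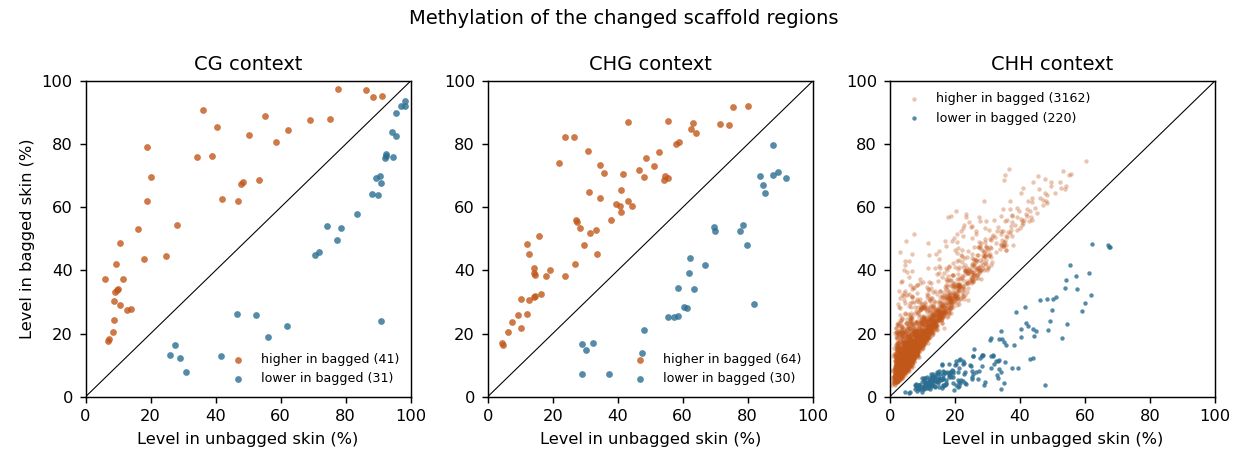
Each point is a changed scaffold region, with its mean level in unbagged skin (horizontal axis, %) and in bagged skin (vertical axis, %), in CG, CHG and CHH context. Regions higher in bagged skin (orange) lie above the diagonal and lower ones (blue) below it; most of the 3382 CHH points lie near the origin, and the lower CG points reach from 25.8% to 98.2% in unbagged skin.

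Direction was then set out by unbagged level, which is coupled to direction, since a region near 0 in unbagged skin has little room to be lower in bagged skin and one near 100% little room to be higher. Among CHH regions, those higher in bagged skin were 99.9% of 1224 under 5% unbagged, 98.3% of 1153 from 5 to 10%, 83.7% of 609 from 10 to 20%, 79.1% of 321 from 20 to 40% and 56.0% of 75 at 40% or more (44.1 to 67.5). On chromosomes these shares were 99.7%, 97.2%, 90.9%, 82.8% and 64.5%. In the 3 upper classes the scaffold share was thus below the chromosome share. When the chromosome shares of these classes were weighted by the scaffolds' numbers of regions, they came to 94.9%, above the 93.5% of the scaffolds.

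The median difference of the higher CHH regions grew with the unbagged level, from 6.14 points under 5% to 7.40, 10.6, 15.1 and 15.3 points in the classes above. The median ratio ran the other way, with 2.79 under 5%, then 2.08, 1.79 and 1.57, and 1.34 at 40% or more. On chromosomes the ratios were 3.24, 2.24, 1.84, 1.55 and 1.33. The scaffold ratio was thus the smaller in each class under 20% and nearly equal above. On chromosomes the differences were 6.93, 8.98, 11.9, 14.8 and 15.3 points. The scaffold median was the smaller in the 3 classes under 20%, the larger from 20 to 40%, and nearly equal at 40% or more.

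In CG context all 19 scaffold regions under 20% unbagged were higher, as were 6 of 10 from 20 to 40%, 9 of 13 from 40 to 60% and 7 of 30 at 60% or more (23.3%, 9.93 to 42.3). In CHG context the counts were all 20 of 20, 19 of 24, 18 of 24 and 7 of 26. The chromosome shares were 86.8%, 50.3%, 36.6% and 11.3% for CG and 92.6%, 63.3%, 44.3% and 13.5% for CHG. The scaffold share was above the chromosome share in every class of both contexts. Weighted by the scaffolds' classes, the chromosome shares came to 41.2% for CG and 50.9% for CHG, against the scaffold shares of 56.9% and 68.1%.

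The mean of both groups gives classes that are not tied to direction in this way. With CHH regions sorted by that mean, 98.1% of the 162 scaffold regions under 5% were higher (94.7 to 99.6), then 95.0% of 1457 from 5 to 10%, 92.7% of 1163 from 10 to 20%, 90.9% of 485 from 20 to 40% and 87.0% of 115 at 40% or more (79.4 to 92.5). The chromosome shares hardly changed over the classes, at 89.0%, 90.2%, 90.01%, 90.2% and 92.0%. The order between scaffolds and chromosomes was therefore the opposite at 40% or more, where the scaffold interval includes the chromosome share. Weighted by scaffold classes the chromosome share was 90.1%, below the 93.5% of the scaffolds, whereas the weighting by unbagged level had put it above. For CG regions the mean was sorted at 20, 40 and 60%, and from the lowest class up 6 of 8, 12 of 18, 10 of 14 and 13 of 32 scaffold regions were higher. For CHG regions these counts were 7 of 8, 17 of 23, 23 of 34 and 17 of 29. The chromosome shares, at 53.9%, 37.9%, 40.8% and 29.4% for CG and 57.5%, 51.0%, 52.5% and 42.1% for CHG, were below the scaffold share in each class.

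**Figure D3:**
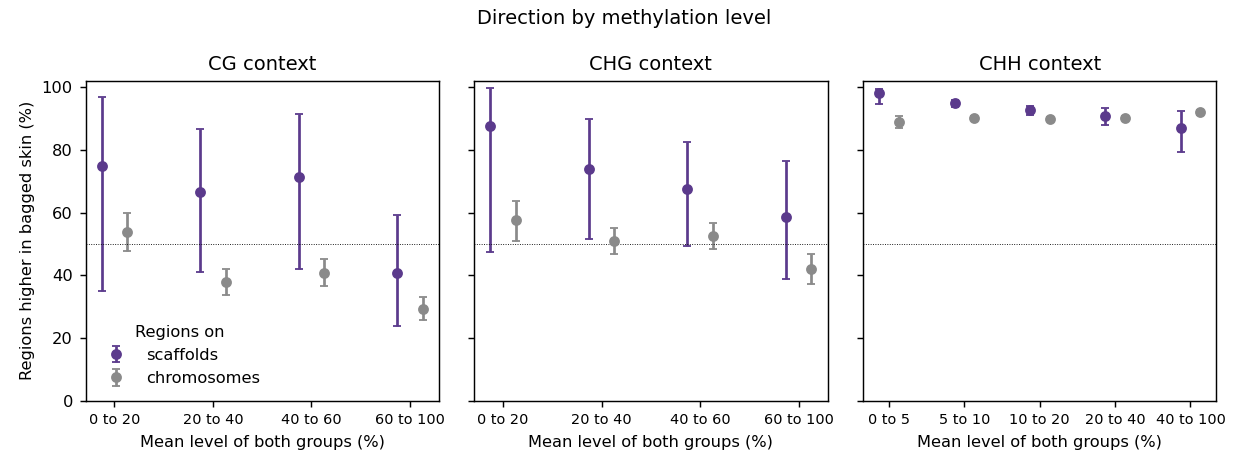
Share of regions higher in bagged skin (vertical axis, %) by the mean level of both groups (horizontal axis, %) in CG, CHG and CHH context, on scaffolds (purple, left of each pair) and chromosomes (grey); bars are 95% exact binomial intervals. In CHH context the scaffold share runs from 98.1% in the lowest class to 87.0% in the highest, and the chromosome share from 89.0% to 92.0%.

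The scaffold regions were spread unevenly. A scaffold held a median of 5 regions, 36 scaffolds held 1 and 62 held 10 or more. The 10 scaffolds with most regions held 1671 of the 3548 (47.1%), with 47.96% of the CHH regions, 37 of the 94 CHG regions and 12 of the 72 CG regions. CHH regions were present on 190 scaffolds, CHG regions on 48 and CG regions on 46. On 127 scaffolds every region was in CHH context, and 29 scaffolds had regions of all contexts. Scaffold lengths were not used, so extents below run from the first to the last region of a scaffold.

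Scaffold_278.2 held the most, with 426 regions (12.0% of all on scaffolds) over 2.24 Mb. Of its 410 CHH regions, 399 were higher (97.3%, 95.3 to 98.7), and its CHH medians were 10.5% in bagged and 4.51% in unbagged skin. It also held 15 CHG regions, where no other scaffold had more than 5. Of these CHG regions 14 were higher, by 11.3 to 55.6 points, with medians of 67.0% in bagged and 34.2% in unbagged skin, and 1 was lower, at 66.9% in bagged and 84.8% in unbagged skin. Its only CG region had 93.8% in bagged and 98.1% in unbagged skin. Without this scaffold the share of higher CHG regions on scaffolds was 63.3% in place of 68.1%.

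Along scaffold_278.2 the changed regions occurred throughout. The 22 full windows of 100 kb from its first region held 9 to 35 regions each, with a median of 18.5. The median CHH level of a window's regions was 8.84 to 12.2% in bagged and 3.59 to 5.71% in unbagged skin, and it was higher in bagged skin in all 22. The 13 lower regions, of all contexts, lay in the windows from 700 to 1500 kb.

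**Figure D4:**
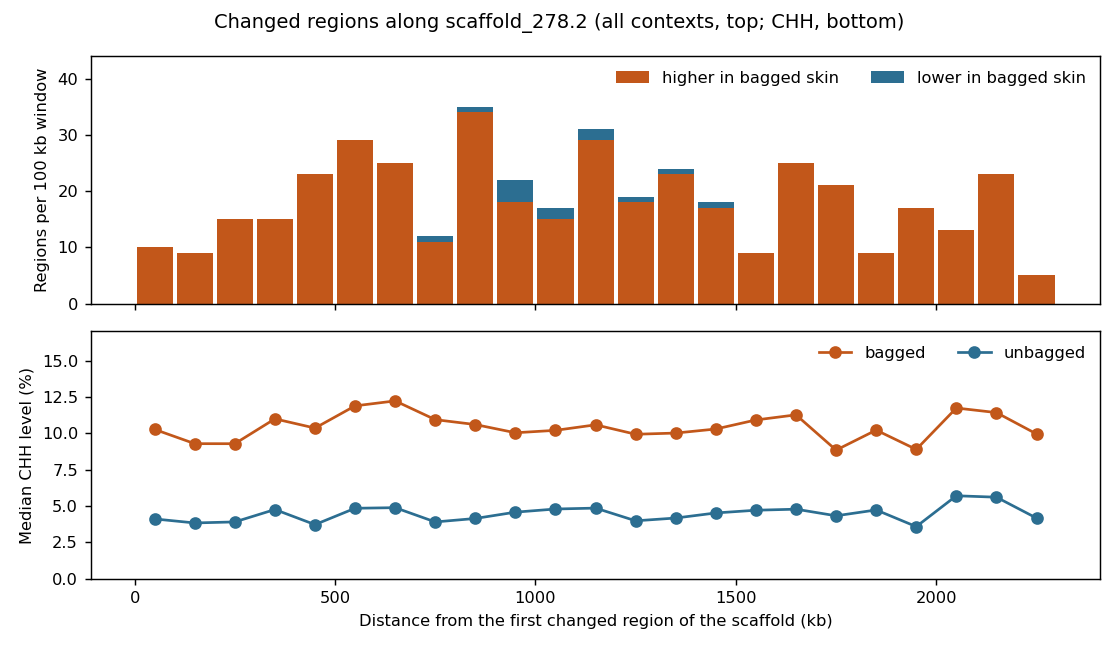
Changed regions along scaffold_278.2 by distance from its first region (kb): the number per 100 kb window in all contexts, stacked by direction (top), and the median CHH level of the window's regions (%) in bagged and unbagged skin (bottom). Windows hold 9 to 35 regions apart from the last, incomplete one, and the bagged medians (8.84 to 12.2%) lie above the unbagged ones (3.59 to 5.71%) in each.

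The 9 scaffolds that followed by number were scaffold_390.1 (205 regions), scaffold_256 (175), scaffold_409 (174), scaffold_391 (166), scaffold_664.0 (124), scaffold_321 (119), scaffold_102 (99), scaffold_150.0 (98) and scaffold_278.1 (85). Their CHH shares higher in bagged skin ran from 91.7% on scaffold_664.0 to 96.8% on scaffold_102. Their CHH medians were lowest on scaffold_391, with 10.6% in bagged and 5.27% in unbagged skin, and highest on scaffold_664.0, with 16.8% in bagged and 9.17% in unbagged skin. Over the extent of their regions these 10 scaffolds held 117.5 (scaffold_321) to 235.1 (scaffold_278.1) regions per Mb, and scaffold_278.2 held 190.0. The chromosomes held 97.5 to 108.7 per Mb, so all 10 were denser. These 10 were ranked by their number of regions, which favours dense scaffolds. Among the 38 scaffolds with 20 or more regions, 29 were denser than the densest chromosome and 6 less dense than the least dense one. The range was 68.5 per Mb (scaffold_73) to 256.5 per Mb (scaffold_698), with a median of 135.0. A limit of 20 regions favours dense scaffolds too. It left out, for example, scaffold_540, with 13 regions over 307.1 kb, and scaffold_22, with 7 over 193.8 kb. These densities therefore hold for the 38 scaffolds only.

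On the 38 scaffolds with 20 or more CHH regions, which held 2674 of them, the share of higher regions had a median of 95.3% and was 90% or more on 33. The highest shares were 100% on scaffold_150.1 (44 regions, 92.0 to 100), scaffold_698 (34 regions) and scaffold_451.4 (33 regions). The lowest were 74.4% on scaffold_625 (29 of 39, 57.9 to 87.0), 80% on scaffold_730.1 (24 of 30, 61.4 to 92.3) and 84.4% on scaffold_426 (27 of 32, 67.2 to 94.7). The median CHH level was higher in bagged skin on all 38, with a range over scaffolds of 9.94 to 33.5% in bagged and 3.85 to 26.7% in unbagged skin. It was under 10% in unbagged skin on 33. The 5 others were scaffold_625 (26.7%), scaffold_356.12 (19.2%), scaffold_451.4 (13.5%), scaffold_730.1 (12.0%) and scaffold_753 (11.3%). Of the 38, these 5 hold those with the lowest and the second lowest share of higher CHH regions, but also scaffold_451.4, where all were higher.

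**Figure D5:**
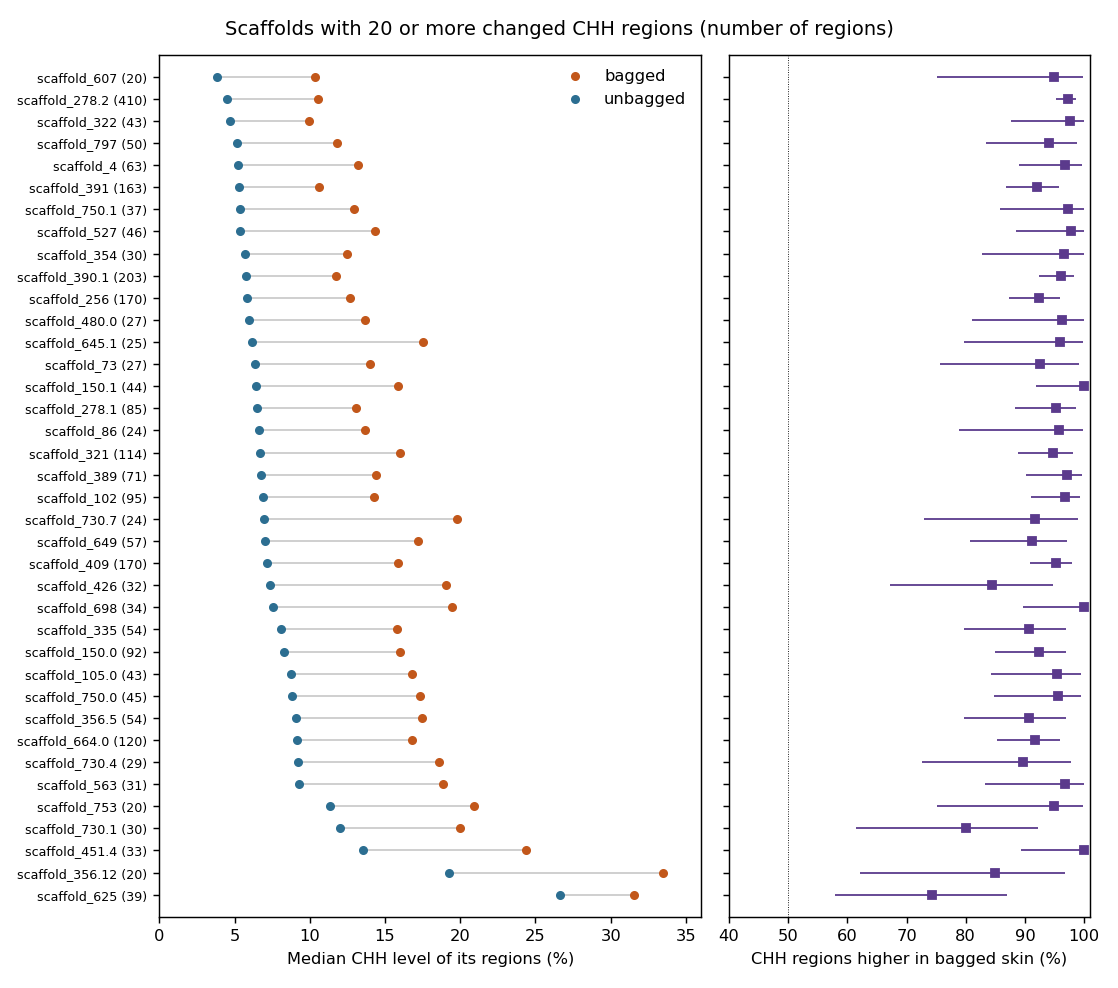
The 38 scaffolds with 20 or more changed CHH regions (number in parentheses), sorted by unbagged level: the median CHH level of their regions (%) in bagged (orange) and unbagged skin (blue) on the left, and the share of CHH regions higher in bagged skin (%) with its 95% exact binomial interval on the right. Bagged medians lie above unbagged ones on every scaffold shown, and scaffold_625 has the lowest share, 74.4%.

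Scaffold_625 thus had both the lowest share of higher CHH regions and the highest unbagged CHH median of the 38. Its 29 higher CHH regions had medians of 37.3% in bagged and 22.9% in unbagged skin, and its 10 lower ones 13.8% in bagged and 33.8% in unbagged skin. It also had the most CG regions of any scaffold, 5, of which 3 were higher and 2 lower. One of the lower ones had 23.8% in bagged and 90.9% in unbagged skin. Its difference of -67.0 points was the largest loss of any scaffold CG region, in a region with fewer than 10 cytosines. The density of scaffold_625, 83.1 regions per Mb, was below that of every chromosome.

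Over all 190 scaffolds with CHH regions, more were higher than lower on 179, both were equal on 7 and more were lower on 4. These 4, scaffold_173, scaffold_317, scaffold_56 and scaffold_777, held a single region each. With each scaffold weighted equally, the mean share of higher CHH regions was 90.4%, below the 93.5% over regions. Scaffolds were also sorted by the end of their last changed region, which is not their length. A long scaffold with few changed regions can fall in a low class. The 109 with this end before 50 kb (first class) had 91.3% of 311 CHH regions higher (87.6 to 94.2). The 11 with it at 500 kb or more (last class) had 94.5% of 1647 (93.3 to 95.5). The shares were 90.6% of 468 from 50 to 200 kb and 93.9% of 956 from 200 to 500 kb. On single chromosomes the share of higher CHH regions ran from 88.5% to 91.6%. Both classes under 200 kb thus lay within that range, and both from 200 kb up lay above it. The first class had CHH medians of 15.7% in bagged and 7.46% in unbagged skin. The last class had 12.6% in bagged and 5.82% in unbagged skin. Both unbagged medians were below that of every chromosome. CHH regions made up 92.3% and 93.4% of the regions in the classes under 200 kb, within the chromosome range of 91.3% to 93.8%. They made up 95.4% and 96.4% in the classes from 200 kb up. CG regions made up 4.75% of the regions in the first class and 1.11% in the last, where single chromosomes ran from 3.16% to 4.72%. Of these CG regions, 11 of 16 were higher in the first class and 8 of 19 in the last. Between them, 13 of 17 were higher from 50 to 200 kb and 9 of 20 from 200 to 500 kb. In both classes from 200 kb up the CG share (45.0% and 42.1%) lay within the chromosome range of 24.7% to 50.4%.

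The scaffold CHH regions were somewhat longer and richer in cytosines, features that the choice of members did not use. Their median length was 129 bp (quartiles 82 and 190) against 121 bp on chromosomes, where single chromosomes ran from 116.5 to 126 bp. They had a median of 39 cytosines against 34, and of 30.7 CHH cytosines per 100 bp against 28.2. Lower CHH regions were shorter (median 98 bp) than higher ones (median 132 bp). A length of 300 bp or more was found in 204 scaffold CHH regions (6.03%), against 4.11% on chromosomes. Of these 204, 202 were higher, beside 1872 of 1919 on chromosomes. The longest scaffold CHH region had 1221 bp. CG regions had a median of 84.5 bp and CHG regions of 88 bp, against 93 and 94 bp on chromosomes.

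They were also closer together. The median gap to the next CHH region on the same scaffold was 3966 bp (quartiles 1330 and 9273), against 6023 bp on chromosomes, whose medians ran from 5711 to 6373 bp. Only gaps within a sequence were counted, so gaps cut by a scaffold end are missing. There were 192 scaffolds beside 17 chromosomes, and how far this shortens the scaffold gaps was not tested. A gap of at most 1 kb was found for 20.5% of neighbours, against 16.0% on chromosomes. Joined at such gaps, the CHH regions formed 502 groups of 2 or more, with 1157 regions. All regions were higher in 437 of these groups, all were lower in 3, and 62 were mixed. With 93.5% of all scaffold CHH regions higher, most such small groups would be all higher whatever their spacing. Whether regions of like direction lay together was not tested. Of the 655 pairs of neighbours at such gaps, 89.8% shared direction, beside 88.4% of all neighbouring CHH regions on scaffolds. On chromosomes these shares were 86.2% and 83.1%. Neighbours share direction often wherever most regions are higher, here 93.5% on scaffolds and 90.3% on chromosomes. The largest group, on scaffold_278.2 from 1192594 to 1195937, held 6 regions, all higher, with medians of 11.5% in bagged and 4.93% in unbagged skin. Of lower CHH regions, 17 of the 203 that were followed by another CHH region were followed by a lower one (8.37%), beside 6.16% of the 2989 higher ones. On chromosomes 12.9% of lower CHH regions and 9.37% of higher ones were followed by a lower one.

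Where scaffold regions of different contexts overlapped, both regions of a pair had the same direction, which on chromosomes also held for most pairs. At 1 shared bp or more, 9 pairs of CG and CHG regions overlapped, 5 higher and 4 lower in both contexts. Of CG and CHH regions 6 pairs overlapped, 4 higher and 2 lower in both, and of CHG and CHH regions 5 pairs, 4 higher and 1 lower in both. With so few pairs the intervals of a shared direction reach down to 66.4%, 54.1% and 47.8%. On chromosomes 100% of CG and CHG pairs, 83.3% of CG and CHH pairs and 94.0% of CHG and CHH pairs shared direction, all within those intervals. The CG regions in a pair with a CHG region were 12.5% of the scaffold CG regions, against 14.2% on chromosomes. The CG regions in a pair with a CHH region were 6.94% of the scaffold CG regions, against 11.5% on chromosomes. For CHG regions in a pair with a CHH region the shares were 4.26% on scaffolds and 12.1% on chromosomes. When regions up to 500 bp apart were counted, 15 pairs of CG and CHH regions were found, and 9 of them (60%) shared direction, against 50.2% on chromosomes. The other 6 paired a lower CG region with a higher CHH region. For CHG and CHH regions 15 of 26 such pairs (57.7%) shared direction, against 59.4% on chromosomes, and 10 of the others paired a lower CHG region with a higher CHH region.

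Regions of all contexts overlapped at 3 places, all named here with positions as the authors' table gives them (on a genome build that the sources used here do not give). On scaffold_81 from 11297 to 11574 all were higher: CG had 82.8% in bagged and 50.2% in unbagged skin, CHG had 63.0% in bagged and 34.6% in unbagged skin, and CHH 16.3% in bagged and 8.36% in unbagged skin. On scaffold_321 from 969700 to 970026 all were higher as well, with 44.7% in bagged and 24.8% in unbagged skin for CG and 38.3% in bagged and 17.9% in unbagged skin for CHG. Both CHH regions there were near 0 in unbagged skin, at 5.93% in bagged and 0.819% in unbagged skin for the first and 8.36% in bagged and 1.66% in unbagged skin for the second. On scaffold_730.1 from 46992 to 47291 all were lower, with 12.8% in bagged and 41.8% in unbagged skin for CG. There CHG had 7.29% in bagged and 29.0% in unbagged skin, and CHH 5.67% in bagged and 12.8% in unbagged skin. At each place the CG level was the highest of the contexts and the CHH level the lowest, in both groups.

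The regions with the largest differences were taken per context and direction among scaffold regions with at least 10 cytosines. The largest below means the largest among these. Gain and loss stand here for a bagged mean above and below the unbagged one. The authors' means were 79.0% in bagged and 19.0% in unbagged skin for the CG region on scaffold_352 from 71893 to 71993 (14 cytosines). The other leading CG gains had 76.2% in bagged and 38.8% in unbagged skin on scaffold_547 from 7869 to 8039, and 53.2% in bagged and 16.0% in unbagged skin on scaffold_149 from 80311 to 80401. The region on scaffold_547 overlapped a CHG region with 77.8% in bagged and 30.9% in unbagged skin, whereas the one on scaffold_352 overlapped no other changed region.

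CG losses of this kind were smaller. The largest, -29.0 points, was the CG region of scaffold_730.1 already described, which has 24 cytosines over 300 bp. It was followed by scaffold_153 from 4336 to 4480, with 49.6% in bagged and 77.2% in unbagged skin, and scaffold_68 from 21586 to 21665, with 25.9% in bagged and 52.5% in unbagged skin. There were 15 candidates for CG losses and 23 for CG gains. The limit of 10 cytosines left out larger losses, among them the one on scaffold_625 and one of -37.5 points on scaffold_664.0 (9 cytosines).

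In CHG context the largest gain was on scaffold_677 from 3717 to 3850, with 82.4% in bagged and 23.7% in unbagged skin over 15 cytosines. A CG region of 5 cytosines inside it stood at 90.7% in bagged and 36.1% in unbagged skin. Gains of 33.7 points on scaffold_312 from 85346 to 85449 and of 32.7 points on scaffold_150.1 from 113079 to 113426 came next, and the second of these has 49 cytosines, the most of any scaffold CHG region. The largest CHG loss was on scaffold_649 from 92619 to 92811, with 29.3% in bagged and 82.1% in unbagged skin. Losses of -33.2 points on scaffold_5 from 185099 to 185283 and of -31.8 points on scaffold_356.12 from 50357 to 50421 followed. None of these 3 overlapped a region of another context.

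In CHH context the largest gain had 49.5% in bagged and 5.03% in unbagged skin, on scaffold_409 from 300905 to 301719. Its 50 CHH cytosines over 815 bp come to 6.13 per 100 bp, where the median scaffold CHH region had 30.7. The next were scaffold_651 from 2949 to 3045, with 51.5% in bagged and 7.40% in unbagged skin, and scaffold_363 from 16602 to 16793, with 57.0% in bagged and 18.0% in unbagged skin, the only changed region on that scaffold. The largest CHH loss was likewise the single region of its scaffold, on scaffold_56 from 24716 to 24793, with 18.8% in bagged and 52.9% in unbagged skin. On scaffold_22 from 94356 to 94536, the levels over 29 cytosines were 2.36% in bagged and 34.3% in unbagged skin, and their ratio (0.0688) was the lowest of any scaffold CHH region. Scaffold_540 from 360759 to 360824 had 27.1% in bagged and 59.1% in unbagged skin. Without the limit of 10 cytosines the largest CHH loss was -44.1 points.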

How the data were processed

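Genomic DNA from fruit skin of 3 bagged and 3 unbagged samples was made into bisulfite libraries with an Accel-NGS Methyl-Seq kit, according to the extraction protocol in the labels. The submitters' processing notes list FastQC and Bismark (version 0.16.3). Not given in the sources used here are the build, the caller of the regions and its thresholds, the handling of reads that map to several places, and the conversion rate.

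Per the file headers, the deposited table gives each region's mean methylation level per group as a fraction, printed here as a percentage. Its difference column equals the bagged minus the unbagged fraction (within 1e-09). The authors' area statistic is a score that the headers do not explain, and it was used only for an alternative. Numbers of cytosines and lengths are the authors' values. Columns were given to groups because their names begin as the sample titles do. Positions have both ends included.

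Python 3.11.15 with pandas 2.3.3 and scipy 1.17.1 was used. Counting of overlaps, gaps and merged regions was tested on simulated regions with known answers. Members and limits were chosen with earlier results of these data known, and the classes by end of the last region, the densities and the comparisons of scaffolds with chromosomes under other limits after seeing the data. Named regions are the 3 with the largest difference per context and direction with at least 10 cytosines. Named scaffolds are the 10 with most regions, and the 3 highest and 3 lowest by share of higher CHH regions among those with at least 20 (ties by number of regions). Others named (scaffold_73, scaffold_356.12, scaffold_753, and the 4 scaffolds with more lower CHH regions) were chosen after their values were seen.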

Additional observations from a re-analysis of the deposited data

How the results depend on the processing

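Alternatives gave 214 values for 25 results. Under each alternative the shares of higher CG, CHG and CHH regions stayed above 50%. Their gaps to chromosomes stayed positive under each alternative tried for them. Scaffolds with 10 or more regions, covered bp and equal weighting were not tried for the gaps. With scaffolds weighted equally the CHH share was 90.4%, beside 90.3% over the regions on chromosomes. Weighting chromosomes by unbagged class, described above, put their CHH share (94.9%) above that of scaffolds. The CG share was lowest, at 51.9%, on scaffolds with 10 or more regions. Medians within higher or lower regions, numbers of pairs and the share on the 10 scaffolds could not reverse a direction by their definition. The share of higher CHH regions on scaffolds, 93.5%, was 80.6% at a difference of at least 20 points, 95.9% among regions above the median area statistic, 95.2% by covered bp and 90.4% with scaffolds weighted equally. The gap to chromosomes in that share, 3.21 points, was 2.18 at 20 points and 1.95 by area statistic. For gaps by area statistic its median was taken per context on scaffolds and on chromosomes separately, so the limits can differ. Overlapping pairs of CG and CHH regions numbered 3 at 50% of the shorter region and 15 within 500 bp, in place of 6, and pairs of CHG and CHH regions 26 within 500 bp, in place of 5. These numbers follow from the rule for overlap, and why the shares moved was not tested; the cause was not tested for the gap to chromosomes either. The 10 scaffolds with most regions held 29.5% of the CG and CHG regions, against 47.1% of all. With 1 of these 10 scaffolds left out in turn, the share of higher CG regions was 56.3 to 58.0%, that of CHG regions 63.3% (without scaffold_278.2) to 69.7%, and that of CHH regions 92.97 to 93.6%. The gap to chromosomes was then 18.0 to 19.6 points (CG), 13.0 to 19.4 points (CHG, lowest without scaffold_278.2) and 2.68 to 3.28 points (CHH). Under the other limits the CHG gap, 17.8 points, ran from 11.4 by area statistic to 20.0 with the first region kept per 10 kb. The CG gap, 18.6 points, ran from 17.4 with regions merged within 100 bp to 22.9 by area statistic. The unbagged level of lower CG regions, a median of 88.0%, was 71.7% with 10 or more cytosines and 66.0% as a mean weighted by cytosines, and that of higher CHH regions, 6.01%, was 8.67% as such a mean. The depth behind each level is unknown, so no error can be set beside a region, and a level of a few percent cannot be set against unconverted cytosines. No paired analysis was possible because the table combines the samples of a group, and for the same reason no sample could be left out.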
